A study of Rattus norvegicus with 12 samples.

Results

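The genes described here are 9 genes of the NRF2 antioxidant pathway, Nfe2l2, Keap1, Nqo1, Hmox1, Gclc, Gclm, Txnrd1, Srxn1 and Slc7a11. They are a named list, which was chosen with earlier results of these data known, and they make up 9 of the 33294 genes counted. RNA-seq was carried out on PAC1 cells, an established rat pulmonary artery smooth muscle cell line that can be kept in a more differentiated state (PAC1-D) or a more proliferative one (PAC1-P) by how often and how far the cultures are split. There were 4 groups of 3 libraries. D1 was PAC1-D with a control siRNA, P was PAC1-P with a control siRNA, RBPMS KD1 was PAC1-D with siRNA against the splicing regulator RBPMS, and MBNL KD was PAC1-D with siRNAs against MBNL1 and MBNL2, both also splicing regulators. All 4 groups carried 90 pmol of siRNA, given in a pair of transfections with a lipid reagent. The labels and the study's methods differ on the number of cells plated and on the times of the repeat transfection and harvest. A knockdown is partial, and the groups rest on 1 cell line. P differs from D1 in culture regime, whereas both knockdowns share the culture regime of D1.

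NRF2, encoded by Nfe2l2, is a transcription factor that binds antioxidant response elements together with small MAF proteins. Under low oxidative stress KEAP1 hands NRF2 to a ubiquitin ligase for degradation, so NRF2 activity is set largely at the level of the protein, which was not measured here. Its best known targets detoxify quinones, degrade heme, make glutathione and keep thioredoxins and peroxiredoxins reduced, and in vascular smooth muscle the pathway is known as part of the defence against oxidative injury.

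The deposited counts totalled 80842635 to 90771289 per library, with the lowest total in MBNL KD replicate 3. The siRNA targets followed the labels. Rbpms stood at 25% of its D1 mean in RBPMS KD1, and Mbnl1 and Mbnl2 at 23.7% and 29.5% in MBNL KD. Rbpms was also low in P, at 6.3% of D1. All 6 smooth muscle markers examined were lower in P and in RBPMS KD1 than in D1 (6 and 3 of them called, that is, with an adjusted p under 0.05 and a log2 change of at least 1), and in MBNL KD 4 were lower and 2 higher with 0 called. The calls in RBPMS KD1 numbered 2 under quantile normalization, where Acta2 was lost, and 4 without D1 replicate 3, where Myh11 was gained. The summed level of the 6 markers ran from 774919 to 814721 scaled counts in D1, 15261 to 16168 in P, 384984 to 400048 in RBPMS KD1 and 623644 to 633153 in MBNL KD. Of 6 endothelial markers, Cdh5 and Kdr were at 0 in every D1, RBPMS KD1 and MBNL KD library. The list summed to 67.1 to 72.5 in D1, 487 to 605 in P, 162 to 165 in RBPMS KD1 and 82.9 to 127 in MBNL KD. In P, Cdh5, which passed the low-count filter through P alone, was at 122 ± 7.89, Tek at 315 ± 34.3 and Vwf at 100.3 ± 17.8 scaled counts. The 8 macrophage and leukocyte markers summed to 5185 to 5550 in D1, 4333 to 4534 in P, 7503 to 7727 in RBPMS KD1 and 4655 to 4942 in MBNL KD, nearly all of it Cd14, with Ptprc and Cd163 at 0 in D1, Adgre1 and Cd163 in RBPMS KD1, and all of Ptprc, Adgre1 and Cd163 in MBNL KD. Csf1r, at 23.6 ± 3.56 in D1 and 58 ± 5.48 in MBNL KD, was called higher there, against the direction of the sum. The part of these differences in the values of the NRF2 genes was not tested. In bulk RNA, fewer cells expressing a gene and less of its RNA per cell cannot be told apart.

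Levels are given as scaled counts, that is, counts divided by the effective library size of edgeR's TMM method and brought to 1 common size. They are not divided by gene length, so they compare groups within a gene and not genes with each other. Differences are log2 fold changes from edgeR's quasi-likelihood test fitted over all genes, with Benjamini-Hochberg adjusted p-values. Each is given ± a standard error, which was derived from the fold change and the F statistic of that test. "Rose" and "fell" mean an adjusted p under 0.05, and "called" means that the log2 fold change was also past 1 in either direction. All 9 genes passed the filter on low counts in every comparison, with 1263 to 29646 counts per library. Counting error at these depths was 0.581% to 2.81% of a value, whereas the SD between libraries was 0.401% to 11.9% of the mean.

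D1 replicate 2 was the lowest of the D1 libraries for 9 of the 9 genes, while it was the lowest for 33.1% of the 17429 genes that passed the filter over all 4 groups. MBNL KD replicate 3, the library with the lowest total, was the lowest of its group for 7 of the 9 genes (38% of all genes), RBPMS KD1 replicate 2 for 5 of the 9 (30.1%), and each P replicate for 3 of the 9. Without D1 replicate 2, the number of NRF2 genes at an adjusted p under 0.05 was 9 in P against D1, 7 in RBPMS KD1 against D1 and 8 in MBNL KD against D1, beside 9, 8 and 8 with all libraries. In RBPMS KD1 the number was 6 to 7 whichever library was left out.

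The NRF2 genes did not move as a block. Nqo1 and Gclm were highest in P and lowest in MBNL KD, while Txnrd1 and Srxn1 were highest in MBNL KD and lowest in P. Nfe2l2 mRNA was above D1 in all 3 other groups and reached 236% of D1 in P, yet the other 8 genes were divided in each comparison. Slc7a11 moved in opposite directions in the 2 knockdowns, to 212% of D1 in MBNL KD and 65% in RBPMS KD1. The plot of scaled counts by gene shows every library.

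**Figure D1:**
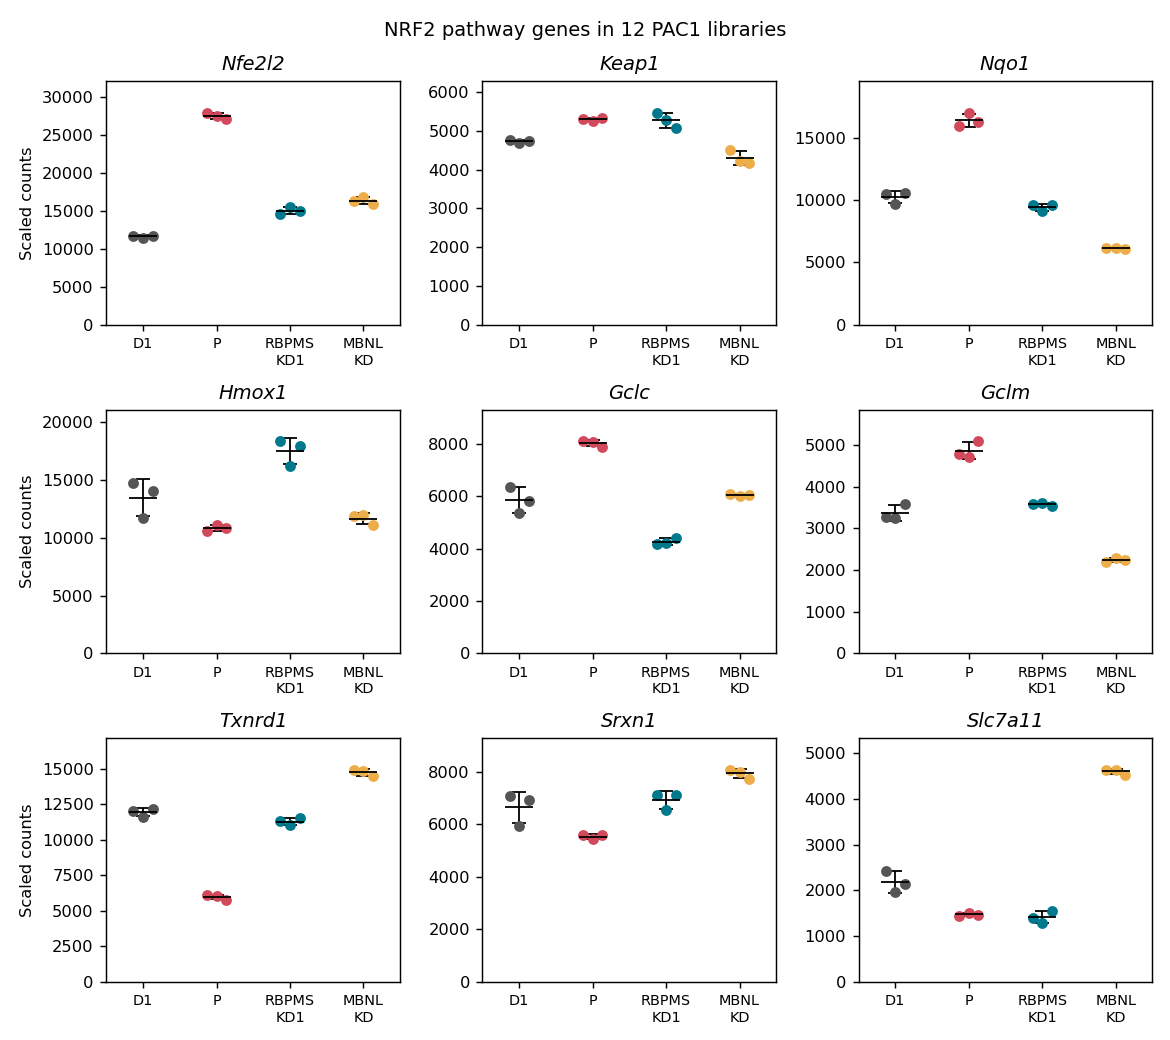
Scaled counts (y axis, starting at 0) of the 9 NRF2 pathway genes in each of 12 libraries, in groups on the x axis. Points are libraries, the wide bar is the mean and the error bars are the SD of 3 libraries. Nfe2l2 is highest in P at 27484 scaled counts, Txnrd1 is lowest in P at 5958, and Slc7a11 is highest in MBNL KD at 4597.

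In P against D1, 5 of the 9 genes rose and 4 fell, where 40.4% of the 16814 genes tested rose and 37.6% fell. Of the 9, 1 was called higher, Nfe2l2, and 1 was called lower, Txnrd1, where 16.4% and 11.2% of all genes were. The median log2 fold change of the 9 was 0.16, beside 0.02 over all genes tested, and the median of its absolute value was 0.53, beside 0.46. In RBPMS KD1 against D1, 4 of the 9 rose and 4 fell (2 fell under quantile normalization), with 29.5% of 15904 genes rising and 29.5% falling. None of the 9 was called there by edgeR or by DESeq2 (0 higher, 0 lower, where 3.06% and 1.62% of all genes were), and the median absolute change was 0.16, beside 0.23 over all genes. In MBNL KD against D1, 4 rose and 4 fell, with 33.8% of 16053 genes rising and 33.7% falling. Slc7a11 alone of the 9 was called, as higher, where 6.1% of all genes were called higher and 4.14% lower. The median absolute change was 0.31 for the 9 and 0.31 for all genes tested. These 3 comparisons share the D1 libraries.

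MBNL KD was also set directly against RBPMS KD1, a comparison that holds no D1 library. All 9 genes differed, 5 higher and 4 lower in MBNL KD, where 35.1% of 16111 genes were higher and 34.5% lower. Slc7a11 alone of the 9 was called in it, as higher (5.88% of all genes were called higher and 6.03% lower). The median absolute difference was 0.51 for the 9 and 0.34 for all genes. The plot of differences from D1 sets the 3 comparisons with D1 side by side.

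**Figure D2:**
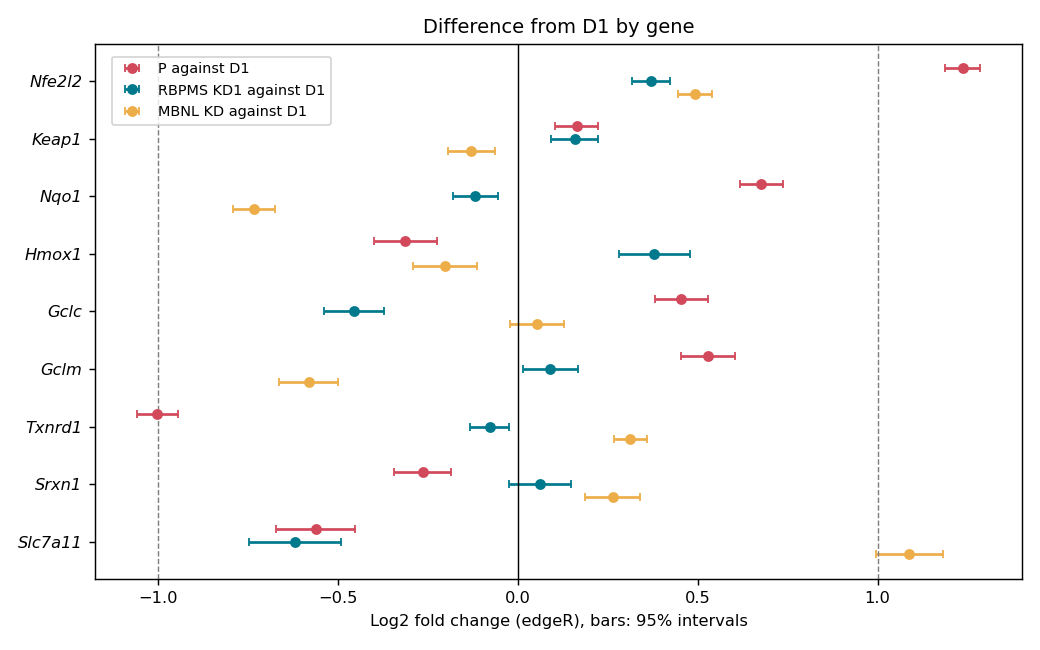
Log2 fold change from D1 (x axis) for each of the 9 genes (y axis) in P, RBPMS KD1 and MBNL KD. Points are edgeR estimates from 3 libraries per group, bars are 95% intervals from the standard error, and dashed lines mark a log2 fold change of 1 either way. Nfe2l2 lies at 1.24 in P, Txnrd1 at -1.002 in P and Slc7a11 at 1.09 in MBNL KD, and the other points lie inside the dashed lines.

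The promoters of these genes were read from RefSeq on the GRCr8 assembly, as 250 bases before to 50 after each start, and are shown because the genes are known for a shared element. The table held 8 of the 9 genes, all but Hmox1, with 9 promoters, since Txnrd1 has 2. The core of the antioxidant response element, TGACNNNGC, was searched on both strands and stood in 3 of the 9 promoters, beside 12.1% of 33469 promoters of all genes. The AP-1-type motif TGANTCA stood in 1 of the 9, that of Srxn1, at 2 places, beside 7.33% of all promoters. No match of one motif overlapped one of the other. Each line gives 30 bases, 5′ to 3′ on the strand of the gene, with the motif in capitals. In Gclm and Txnrd1 the capitals read as the element on the opposite strand.
Gclm: tgcggtttctGCTTAGTCAttgtcttccag
Nfe2l2: actgctccgactagccatTGACGCCGCctc
Txnrd1: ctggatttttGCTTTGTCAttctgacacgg
Srxn1, farther match: ctctgagggccTGAGTCAccacgctgtgcg
Srxn1, nearer match: caaactcacccTGAGTCAgcgacccgacgc
The Gclm window is chr2:213031953-213031982 on the plus strand, and its motif begins 172 bases before the start. That of Nfe2l2 is chr3:81028950-81028979 on the minus strand, with the motif 39 bases past the start. The Txnrd1 window is chr7:22755963-22755992 on the minus strand, in 1 of its 2 promoters, with the motif 78 bases before the start. The Srxn1 windows are chr3:161064739-161064768 and chr3:161064796-161064825 on the plus strand, with motifs 62 and 5 bases before the start. A match is a run of letters and not a measured binding site, and the windows do not cover distal elements. Of the 3 genes with the antioxidant element in the window, Nfe2l2 and Gclm rose in P and Txnrd1 fell.

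Nfe2l2, the transcription factor, had 11746, 11475 and 11749.7 scaled counts in the D1 libraries and 27915, 27432 and 27104 in P. The RBPMS KD1 libraries had 14619.7, 15510.4 and 15019, and the MBNL KD libraries 16321, 16798 and 15878. No 2 groups overlapped, in the order P, MBNL KD, RBPMS KD1, D1. From 11657 ± 157 in D1 (SD, n = 3), the mean was 27484 ± 408 in P, a log2 fold change of 1.24 ± 0.025 (adjusted p = 6.78e-30). The rise was 0.37 ± 0.027 in RBPMS KD1 (adjusted p = 1.8e-12) and 0.49 ± 0.024 in MBNL KD (adjusted p = 3.68e-17), higher than every D1 library in 3 of 3 libraries each. MBNL KD exceeded RBPMS KD1 by 0.12 ± 0.027 (adjusted p = 0.000331). In P, 22.9% of the genes tested had an absolute change at least as large.

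Keap1, the adaptor that presents NRF2 for degradation, varied least of the 9 between group means. It had 4772, 4684 and 4724 scaled counts in D1, 5306, 5259 and 5324 in P, 5461, 5272 and 5072 in RBPMS KD1 and 4509, 4220.0 and 4172 in MBNL KD. P and RBPMS KD1 overlapped above D1, and MBNL KD lay below it. Keap1 rose by 0.16 ± 0.031 on the log2 scale in P (adjusted p = 1.58e-05) and 0.16 ± 0.033 in RBPMS KD1 (adjusted p = 0.000169), and differed by -0.13 ± 0.033 in MBNL KD (adjusted p = 0.0011). The decrease in MBNL KD lost the test in 2 of 14 alternatives, among them quantile normalization, at -0.04 (adjusted p = 0.258). The ratio of Nfe2l2 to Keap1 counts within a library was 2.47 ± 0.0191 in D1, 5.19 ± 0.0883 in P, 2.86 ± 0.159 in RBPMS KD1 and 3.8 ± 0.181 in MBNL KD. Each group lay wholly above D1, at a two-sided exact permutation p of 0.1, the smallest that 3 against 3 libraries allow.

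Nqo1 encodes a quinone reductase and is a standard readout of NRF2 activity. It had 10481, 9655 and 10591 scaled counts in D1 and 15941, 16982 and 16243 in P. In RBPMS KD1 it had 9575, 9108 and 9601, and in MBNL KD 6131, 6152 and 6103. No 2 groups overlapped, with P highest and MBNL KD lowest, although the lowest D1 library was close to the highest of RBPMS KD1. The log2 fold change was 0.68 ± 0.031 in P (adjusted p = 8.05e-20) and -0.73 ± 0.030 in MBNL KD (adjusted p = 2.77e-19), both short of a call. In RBPMS KD1 it was -0.12 ± 0.032 (adjusted p = 0.00232). That decrease lost the test in 2 of 14 alternatives, among them quantile normalization, at -0.07 (adjusted p = 0.0788), with a largest adjusted p of 0.209. MBNL KD was lower than RBPMS KD1 at -0.62 ± 0.028 (adjusted p = 3.25e-18). Set against its regulator's mRNA, the Nqo1 to Nfe2l2 ratio was 0.878 ± 0.0323 in D1, 0.596 ± 0.0241 in P, 0.627 ± 0.0355 in RBPMS KD1 and 0.375 ± 0.00907 in MBNL KD, so each other group lay below D1 (exact permutation p = 0.1 each).

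Hmox1, heme oxygenase, degrades heme and is induced by heme and many stresses. It had 14717, 11670.1 and 14041 scaled counts in D1, 10604, 11142 and 10828 in P, 18352, 16221 and 17971 in RBPMS KD1 and 11912, 11971 and 11074 in MBNL KD. RBPMS KD1 lay above all other libraries, D1 overlapped MBNL KD, and MBNL KD overlapped P. The D1 SD was 11.9% of its mean, the largest among the 9 genes and 4 groups. Hmox1 rose in RBPMS KD1 by 0.38 ± 0.050 (adjusted p = 1.98e-07) and fell in P, at -0.31 ± 0.045 (adjusted p = 1.47e-07). In MBNL KD the change was -0.20 ± 0.046 (adjusted p = 0.00027). It did not pass in 2 of 14 alternatives, among them DESeq2 on the same counts (adjusted p = 0.0765), with a largest adjusted p of 0.271. MBNL KD against RBPMS KD1 gave -0.59 ± 0.034 (adjusted p = 1.02e-15).

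Gclc and Gclm encode the catalytic and the modifier subunit of glutamate-cysteine ligase, the rate-limiting enzyme of glutathione synthesis. Gclc had 6357, 5362 and 5830.4 scaled counts in D1, 8099.9, 8072 and 7885 in P, 4168, 4205 and 4409 in RBPMS KD1 and 6079.6, 6007 and 6054 in MBNL KD. P was the highest group and RBPMS KD1 the lowest, and MBNL KD lay within the range of D1. Gclm had 3272, 3262 and 3586 in D1, 4794, 4717 and 5097 in P, 3597, 3609.6 and 3553 in RBPMS KD1 and 2189.5, 2298 and 2246 in MBNL KD. Here too P was highest, but MBNL KD was lowest and RBPMS KD1 overlapped D1.

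Both subunits rose in P, Gclc by 0.45 ± 0.038 (adjusted p = 8.4e-13) and Gclm by 0.53 ± 0.038 (adjusted p = 2.87e-14). The knockdowns separated them. Gclc fell in RBPMS KD1, at -0.46 ± 0.043 (adjusted p = 2.77e-10), where Gclm was at 0.09 ± 0.039 (adjusted p = 0.049). The Gclm value missed the threshold in 10 of 14 alternatives, among them leaving out any library but D1 replicate 3. Gclm fell in MBNL KD, at -0.58 ± 0.042 (adjusted p = 3.07e-13), where the Gclc difference had an interval of -0.02 to 0.13 (adjusted p = 0.215). That difference turned to -0.01 without D1 replicate 2 and passed the test without D1 replicate 1, at 0.11 (adjusted p = 0.00942), and under quantile normalization, at 0.14 (adjusted p = 0.00384). The ratio of Gclc to Gclm counts was 1.94, 1.64 and 1.63 in D1 and 1.69, 1.71 and 1.55 in P, which overlapped (exact permutation p = 0.6). It was 1.16, 1.17 and 1.24 in RBPMS KD1, all below D1, and 2.78, 2.61 and 2.69 in MBNL KD, all above D1 (exact permutation p = 0.1 each). This ratio was chosen after the levels of both genes had been seen, so its separation is no independent result.

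Slc7a11, also xCT, is the light chain of the transporter that brings in cystine for glutathione synthesis, and it is known as a target of ATF4 as well as NRF2. It had 2426, 1953 and 2136 scaled counts in D1 and 1439.7, 1509 and 1468 in P. RBPMS KD1 had 1403, 1279.5 and 1549.8, and MBNL KD had 4633, 4634 and 4526. Every MBNL KD library was above every other library, and P and RBPMS KD1 overlapped below D1. The rise in MBNL KD was 1.09 ± 0.048 (adjusted p = 2.59e-18), and 9.02% of the genes tested changed at least as much. Slc7a11 fell in P, at -0.56 ± 0.056 (adjusted p = 8.76e-11), and in RBPMS KD1, at -0.62 ± 0.065 (adjusted p = 2.64e-09). MBNL KD against RBPMS KD1 differed by 1.70 ± 0.048 (adjusted p = 1.93e-23), 3.26-fold, with 3.30% of genes differing as much.

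Txnrd1, the cytosolic thioredoxin reductase, had 12009, 11608 and 12156 scaled counts in D1 and 6080.1, 6009 and 5784 in P. RBPMS KD1 had 11325, 11016 and 11499, and MBNL KD had 14928, 14817 and 14482. The groups did not overlap, with P lowest at 50% of D1 and MBNL KD highest at 124%. The change in P was -1.002 ± 0.029 (adjusted p = 1.64e-25). It was called by a narrow margin, and it no longer passed a log2 change of 1 in 8 of 14 alternatives. These were leaving out D1 replicate 3 (-0.99) or P replicate 3 (-0.98), DESeq2 size factors, quantile normalization, DESeq2, limma on the normalised values, 1 fit of 12 libraries and halved counts (-0.95 to -0.9996 over the last 6), with the direction the same in all 14. Txnrd1 rose in MBNL KD by 0.31 ± 0.024 (adjusted p = 7.94e-13). In RBPMS KD1 it was at -0.08 ± 0.028 (adjusted p = 0.0157). That decrease missed the threshold in 4 of 14 alternatives, with a largest adjusted p of 0.789. Among them were leaving out D1 replicate 3 (adjusted p = 0.0848) or RBPMS KD1 replicate 2 (adjusted p = 0.0955) and quantile normalization (adjusted p = 0.775).

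Srxn1, sulfiredoxin, repairs over-oxidised peroxiredoxins. It had 7056, 5948 and 6910.2 scaled counts in D1, 5572, 5431 and 5584 in P, 7115, 6546 and 7106 in RBPMS KD1 and 8072, 7991 and 7737 in MBNL KD. MBNL KD lay above and P below all other groups, while RBPMS KD1 overlapped D1. Srxn1 fell in P, at -0.26 ± 0.040 (adjusted p = 4.23e-07), and rose in MBNL KD by 0.26 ± 0.039 (adjusted p = 6.49e-07). In RBPMS KD1 its interval was -0.02 to 0.15 (adjusted p = 0.231), with the sign turning without D1 replicate 2.

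Ratios of counts within a library do not depend on how libraries were scaled, and those given here and above were chosen after the levels had been seen. The Txnrd1 to Nqo1 ratio was 1.17 ± 0.0321 in D1 and 0.364 ± 0.0153 in P (exact permutation p = 0.1). It was 2.41 ± 0.031 in MBNL KD (p = 0.1) and 1.2 ± 0.0134 in RBPMS KD1 (p = 0.3), both by the exact permutation test. The Slc7a11 to Nqo1 ratio was 0.212 ± 0.0171 in D1, 0.0899 ± 0.000846 in P, 0.149 ± 0.0108 in RBPMS KD1 and 0.75 ± 0.00752 in MBNL KD. No 2 groups overlapped in it.

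**Figure D3:**
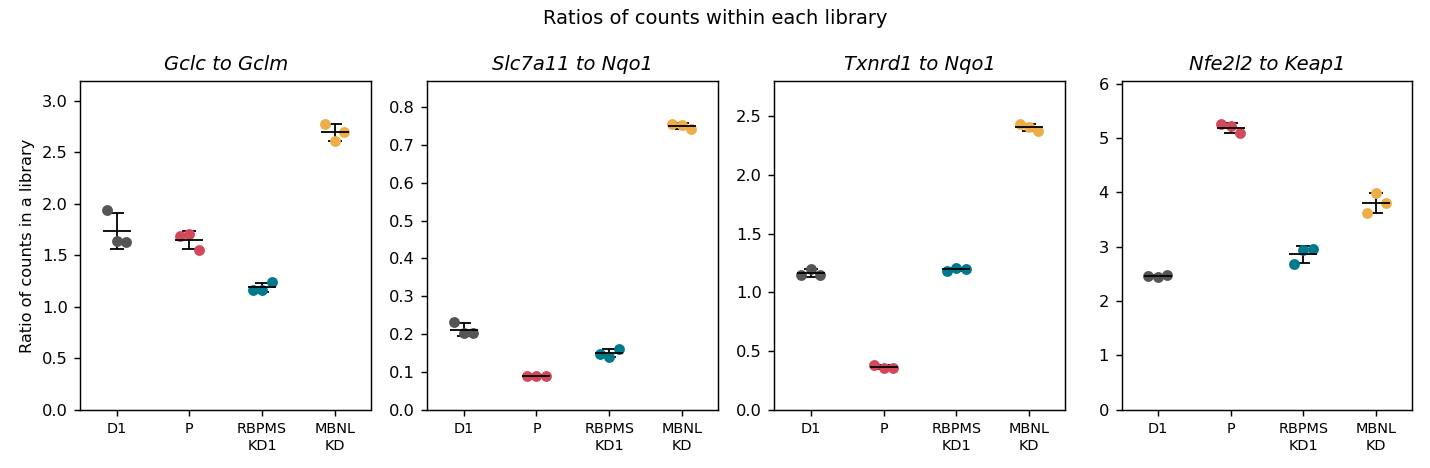
Ratios of counts of 2 genes within each library (y axes, starting at 0) by group (x axes) for Gclc to Gclm, Slc7a11 to Nqo1, Txnrd1 to Nqo1 and Nfe2l2 to Keap1. Points are libraries, the wide bar is the mean and error bars are the SD of 3 libraries. MBNL KD is highest in the first 3 ratios, at 2.78, 2.61 and 2.69 for Gclc to Gclm, and P is highest for Nfe2l2 to Keap1.

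Among 17428 genes, those whose log2 CPM were most like Nfe2l2 over the 12 libraries were Ppp2r2c, Lama3 and Mier1 (Pearson r = 0.995, 0.995 and 0.994). Lama3, a laminin chain, was at 2382% of its D1 mean in P, 307% in RBPMS KD1 and 427% in MBNL KD, so its spread was far wider than that of Nfe2l2. Mier1 was at 141%, 112% and 115%. Those most like Nqo1 were Nipal3, LOC120093741 and Mideas (each r = 0.997). Nipal3 was at 281% of D1 in P, 78.6% in RBPMS KD1 and 30.6% in MBNL KD. These correlations describe 4 group means more than 12 separate points.

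The remaining genes of the pathway were taken from lists, for which the share of all genes given above for each comparison is the background. Of 37 other known NRF2 target genes, 33 were tested in P, of which 13 rose and 19 fell (median log2 fold change -0.13). In RBPMS KD1 12 of 32 rose and 12 fell (median 0.02, and 0.001 to 0.03 with single libraries left out), and in MBNL KD 10 of 33 rose and 17 fell (median -0.14, and -0.07 under quantile normalization). Mgst1, a microsomal glutathione transferase, had 2.04, 4.13 and 8.16 scaled counts in D1 and 17336, 17879 and 17633 in P, so that it entered the test of P against D1 through P and its place among the 13 was fixed by the filter, and Aldh3a1, an aldehyde dehydrogenase, went from 61.5 ± 5.32 to 2236 ± 43.5. Ptgr1, prostaglandin reductase, rose in P from 164 ± 17.2 to 3010.0 ± 82. Slc40a1, the iron exporter ferroportin, fell from 14228 ± 221 in D1 to 2162 ± 63.7 in P and 7217 ± 228 in MBNL KD. Of 18 partners, paralogs and regulators of NRF2 tested, 4 rose and 13 fell in P, 6 rose and 6 fell in RBPMS KD1, and 5 rose and 10 fell in MBNL KD (medians -0.23, -0.02 and -0.22, the second 0.03 under quantile normalization). Nfe2l3, a paralog of Nfe2l2, rose in P from 46.5 ± 4.37 to 228 ± 21.5, and Bach2, a repressor at the same elements, fell from 558 ± 33.9 to 262 ± 28.1. In MBNL KD their directions were the opposite, with Nfe2l3 at 15.4 ± 3.94 and Bach2 at 1141 ± 58.7. Mafk, a small MAF partner of NRF2, fell in P from 5665 ± 216 to 1983 ± 25.1, and Maff, another small MAF, rose in MBNL KD from 757 ± 86.1 to 1655 ± 129.

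Of 24 other glutathione genes tested, 11 rose and 10 fell in P, 11 rose and 4 fell in RBPMS KD1, and 13 rose and 5 fell in MBNL KD (medians -0.02, 0.12 and 0.24). With single libraries left out the median ran from -0.04 to 0.005 in P and from 0.05 to 0.13 in RBPMS KD1, where it was lowest without D1 replicate 2 and also near 0.06 without D1 replicate 3 or RBPMS KD1 replicate 1. Oplah, which opens 5-oxoproline to glutamate, rose in P from 2387 ± 41.5 to 39392 ± 820.1 scaled counts, Mgst2, a microsomal glutathione transferase, rose from 168 ± 20.8 to 2284 ± 76.5, and Ggt5, a gamma-glutamyl transferase relative, fell from 683 ± 24.4 to 124 ± 4.48. Cth, which makes cysteine from cystathionine, was low in D1 at 99.1 ± 6.32 scaled counts, as it was in RBPMS KD1 at 87.8 ± 7.8, and stood at 786 ± 20.7 in P and 1014 ± 33.7 in MBNL KD. Of 15 thioredoxin and peroxiredoxin genes outside the 9, 7 rose and 8 fell in P, 3 rose and 9 fell in RBPMS KD1, and 5 rose and 7 fell in MBNL KD (medians -0.15, -0.09 and -0.02), with 3 and 5 in RBPMS KD1 under quantile normalization and a median of 0.06 in MBNL KD. Txnrd3, another thioredoxin reductase gene, rose in P from 1228 ± 79.9 to 5581 ± 75, the reverse of Txnrd1. The methionine sulfoxide reductases Msra and Msrb1 stood at 225% and 40.8% of D1 in P. Among 5 superoxide dismutase and catalase genes, 2 rose and 2 fell in P, 1 rose and 3 fell in RBPMS KD1, and 1 rose and 4 fell in MBNL KD. Sod1, the cytosolic superoxide dismutase, went in MBNL KD from 7285, 7049 and 7389 to 2149.8, 2070.5 and 2029 (-1.79 ± 0.034, adjusted p = 2.72e-27). Of the NADPH oxidase subunits 6 of 9 rose and 1 fell in P (1 of the 6, Cyba, passed the filter through P alone), 4 of 8 rose and 1 fell in RBPMS KD1, and 5 of 8 rose and 1 fell in MBNL KD. The P tally was 4 and 3 under quantile normalization, where Duox2 changed sign and the Nox1 call was lost, and 4 and 1 without D1 replicate 3 or without P replicate 1. Nox1 rose in MBNL KD from 23.2 ± 3.61 to 215 ± 11.9 scaled counts, and Duox1 rose in P from 146 ± 17.9 to 887 ± 62.8. Of 19 heme and iron genes 8 rose and 9 fell in P, 8 rose and 5 fell in RBPMS KD1, and 9 rose and 8 fell in MBNL KD. The RBPMS KD1 tally was 5 and 4 without D1 replicate 2, 8 and 3 without RBPMS KD1 replicate 3, and 10 and 3 under quantile normalization. Alas1, the first enzyme of heme synthesis, fell in P to 38.8% of D1 and rose in RBPMS KD1 to 215% and in MBNL KD to 196%.

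Because Slc7a11 is a known ATF4 target, 14 ATF4 genes of the amino acid response were set beside it. Whether ATF4 has a part in the Slc7a11 values was not tested. In MBNL KD 12 of the 14 rose, none fell and 4 were called higher, where 33.8% of all genes rose, 33.7% fell and 6.1% were called higher. The median log2 fold change was 0.82, beside 0.01 over all genes tested. Asns, asparagine synthetase, rose there from 4054 ± 67.9 to 11991 ± 371 scaled counts (1.57 ± 0.028, adjusted p = 5.97e-28). Trib3 rose by 1.40 ± 0.069, Chac1, which degrades glutathione, by 1.07 ± 0.047, and Cth by 3.36 ± 0.092. Cth was also counted among the glutathione genes above. Without D1 replicate 2, 12 rose, 1 fell and 4 were called, with a median of 0.79. In RBPMS KD1, where Slc7a11 fell, 8 of the 14 rose and 3 fell (5 fell without D1 replicate 2), with 0 called and a median of 0.20. Of all genes 29.5% rose and 29.5% fell in RBPMS KD1, with 3.06% called higher and 1.62% lower. In P, where Slc7a11 also fell, 9 rose and 5 fell, with 1 called and a median of 0.37. The shares of all genes in P were 40.4% and 37.6%, with 16.4% called higher and 11.2% lower. Set directly against RBPMS KD1, MBNL KD was higher in 12 of the 14 and lower in 1 (35.1% and 34.5% of all genes), with a median difference of 0.69.

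**Figure D4:**
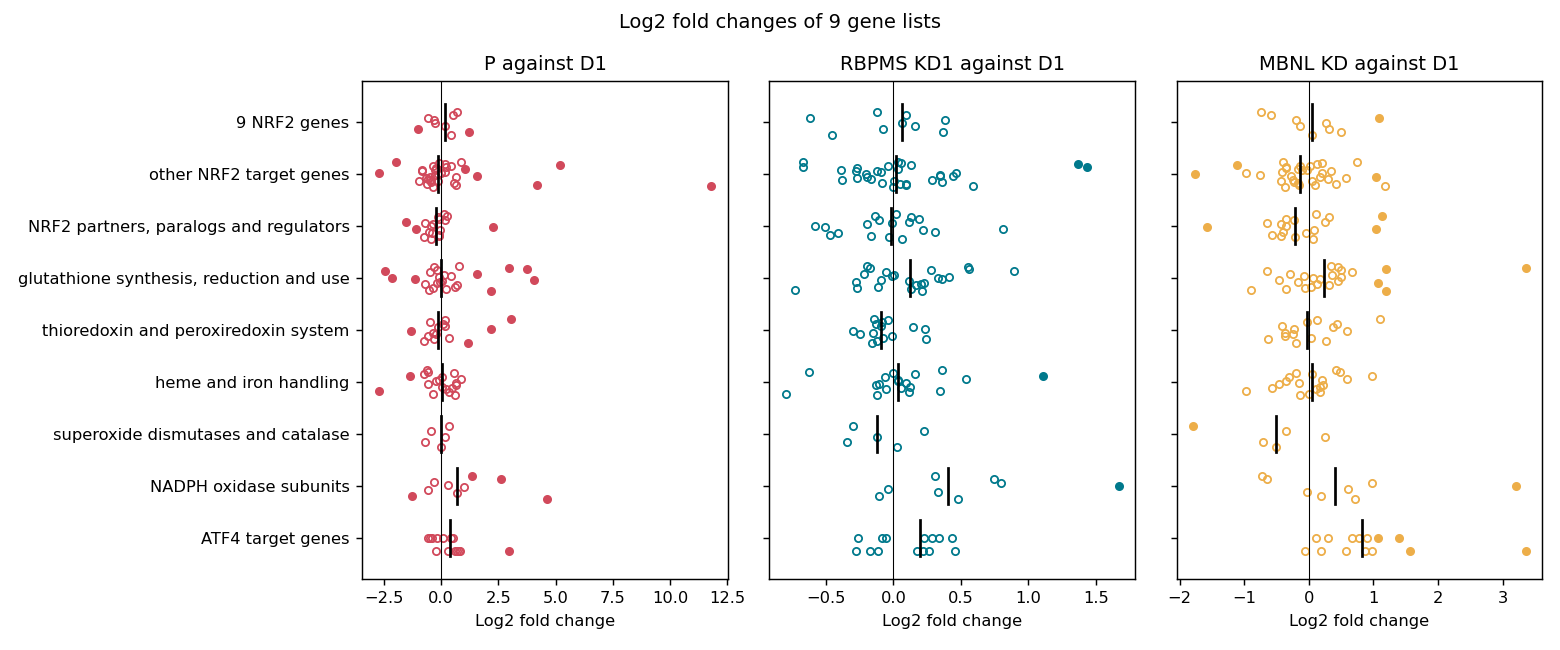
Log2 fold changes (x axes, which differ in range between panels) of the tested genes in 9 lists (y axis) for P, RBPMS KD1 and MBNL KD against D1. Each point is a gene from 3 libraries per group, filled points are called, and black bars are list medians. The ATF4 list has its median at 0.82 in MBNL KD, beside 0.05 for the 9 NRF2 genes (-0.013 without D1 replicate 2, 0.11 without D1 replicate 1 and 0.14 under quantile normalization).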

How the data were processed

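RNA-seq was performed on 12 libraries of poly(A)-selected RNA, 3 for each of 4 groups taken from the sample labels. The authors assessed reads with FastQC 0.11.9 and MultiQC 1.14, subsampled them to 1 depth, aligned them with STAR 2.7.11b to the mRatBN7.2 genome and deposited raw counts per gene from featureCounts. They also deposited a normalised expression signal for 19812 of the 33294 genes, made by noise removal with noisyR and quantile normalization, whose smallest value was 35. Whether mates of a pair and strand were counted separately is not given in the sources used here, so overlapping and antisense genes are uncertain. Gene lengths were not used. The deposited totals are larger than the depth per library to which the methods say reads were subsampled. Percentages given as counting error assume independent reads and cover no other error. They are too low if mates were counted separately.

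The 9 members and all gene lists were chosen with earlier results of these data known. Counts were tested with edgeR 4.0.16 in R 4.3.3 (filterByExpr, TMM, quasi-likelihood F test, Benjamini-Hochberg adjustment over all genes tested) on the 6 libraries of each comparison, and called past both an adjusted p of 0.05 and a log2 change of 1 either way, the criteria stated in the study's methods. Intervals are 95% and taken as 1.96 times the derived standard error either way, with no allowance for the small number of libraries. Ratios were compared by two-sided exact permutation tests. The labels do not say that replicates were separate cultures, although the methods describe biological replicates, so p-values measure the spread between these libraries. Genes were named from the 9 members, at most 4 genes per list by the largest absolute log2 fold change among those called against D1 with 100 or more scaled counts in the group where they were higher, the siRNA targets and smooth muscle markers, and the 3 genes most correlated with Nfe2l2 and with Nqo1. The other markers were named as checks. Alternatives were DESeq2 1.42.0, limma 3.58.1 on log2 of the deposited signal with no added pseudocount, other scalings, no filter, halved counts, a replicate block and leaving out each library. The edgeR script was tested on simulated data for RBPMS KD1 against D1 with 15743 genes, where 200 of 200 altered genes were recovered and 0 others were called. Promoter sequences came from RefSeq on GRCr8 and were not placed on mRatBN7.2.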

Additional observations from a re-analysis of the deposited data

Results flagged for a closer look

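Slc7a11, the cystine transporter chain, was the 1 gene of the 9 NRF2 genes called in MBNL KD against RBPMS KD1, where 5.88% of all genes tested were called higher and 6.03% lower. MBNL KD exceeded RBPMS KD1 by 1.70 on the log2 scale in the direct edgeR comparison of their libraries, with 3 of 3 MBNL KD libraries above every RBPMS KD1 library. Against D1 it rose in MBNL KD and fell in RBPMS KD1.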

How the results depend on the processing

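Of 36 results (9 genes in 4 comparisons), 28 kept their direction, their test result and their call under the alternatives run. The other 8 were Txnrd1 in P against D1 (its call, not its direction), Gclm, Nqo1, Txnrd1 and Srxn1 in RBPMS KD1 against D1, and Gclc, Keap1 and Hmox1 in MBNL KD against D1. The number of NRF2 genes called in P against D1 was 2, and it was 1 with DESeq2 size factors, quantile normalization, DESeq2 on the counts, limma on the deposited normalised values, 1 fit of all 12 libraries or halved counts, and 1 to 2 when each replicate was left out (1 without D1 replicate 3 or P replicate 3). With no fold threshold the counts were 9 for P against D1, 8 for RBPMS KD1, 8 for MBNL KD, and 9 for MBNL KD against RBPMS KD1, beside 2, 0, 1 and 1 called. The count in RBPMS KD1 at an adjusted p under 0.05 was 5 with limma on the normalised values, a comparison chosen after the data were seen. Without D1 replicate 2, Srxn1 in RBPMS KD1 turned to -0.013 (range 0.11 to -0.013 over single libraries left out) and Gclc in MBNL KD to -0.013 (range 0.11 to -0.013). The cause of these changes was not tested.

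Replicate numbers did not pair the libraries, since deviations of same-numbered libraries correlated at -0.018 to 0.017 over 12 pairs. With a replicate block the numbers called were 2, 0, 1 and 1, as without it, and at an adjusted p under 0.05 they were 9, 8, 8 and 9. With 3 libraries per group, permutation tests could not go below 0.1.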
